A study of Saccharomyces cerevisiae with 36 samples.

Results

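The mitochondrial matrix chaperones described here are 7 nuclear genes of budding yeast, Saccharomyces cerevisiae, chosen by name: HSP60, HSP10, SSC1, MDJ1, MGE1, ECM10 and HSP78. The count table holds 7126 genes, and all 7 were found in it by symbol. RNA was sequenced from 4 strains under 3 conditions, as 12 groups of 3 libraries (36 in total). All strains were MATa his3Δ1 leu2Δ0 ura3Δ0 met15Δ0, and HSF1+ also carried LYS2. WT was the parental strain. In hsf1∆ the gene of the transcription factor Hsf1 was replaced by a cassette with kanMX in which the ADH1 promoter drives YDJ1, the TEF1 promoter drives HSC82 and the TDH3 promoter drives SSA2. The cassette supplies cytosolic chaperones without Hsf1. HSF1+ carried that cassette together with HSF1, and served as the control of hsf1∆. The remaining strain was labelled msn2::hphMX4 msn4::natMX4, a deletion of the general stress factors Msn2 and Msn4, and is called the strain labelled msn2/4∆. Cells were grown in YPD at 25 °C. Besides untreated cultures there were cultures kept at 37 °C for 15 min, called heat shock, and cultures that received AzC, short for azetidine-2-carboxylic acid, at 10 mM and 25 °C for 1 h. AzC is built into proteins in place of proline, and the proteins that contain it misfold.

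Proteins made in the cytosol enter the mitochondrial matrix unfolded, through channels in both membranes. The matrix Hsp70 Ssc1 binds them as they emerge, pulls them in and helps them fold, with the J protein Mdj1 stimulating its ATPase and the nucleotide exchange factor Mge1 releasing its ADP. Many of them then fold inside the barrel of Hsp60 under its lid Hsp10, and Hsp78, a matrix relative of the cytosolic disaggregase Hsp104, pulls proteins out of aggregates together with Ssc1. Ecm10 is a close paralog of Ssc1 of minor known use. Hsf1 binds repeats of the unit GAA, called heat shock elements, and Msn2 and Msn4 bind the stress response element, whose core is AGGGG.

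The upstream regions of the genes differed in these motifs. In the R64 genome HSP60 (YLR259C) lies at chrXII:663284-665002, HSP10 (YOR020C) at chrXV:370524-370844, SSC1 (YJR045C) at chrX:519638-521602 and MDJ1 (YFL016C) at chrVI:104701-106236, all on the minus strand. HSP78 (YDR258C) lies at chrIV:971808-974243 on the minus strand, MGE1 (YOR232W) at chrXV:774573-775259 and ECM10 (YEL030W) at chrV:94644-96578 on the plus strand. Each has 1 exon, and none overlaps another annotated gene. A window of 500 bases before the start codon was searched on both strands, for the members and for 6000 protein-coding genes. The full heat shock element, the 3 alternating units TTC, GAA and TTC with NN between each pair, was found upstream of HSP60, HSP10 and HSP78, and upstream of 89 of the 6000 genes (1.48%). The shorter forms TTCNNGAA and GAANNTTC, which lie within the longer motif, were found upstream of the same 3 members (in HSP60 also once outside the longer motif, nearer the start codon), with either one upstream of 35.2% of the genes. A spaced form, 3 units TTC with 7 N between each pair, was added to the search after the first scan of these regions and was found upstream of SSC1 and MDJ1 and of 2.1% of the genes. The core AGGGG was present upstream of SSC1, MDJ1, ECM10 and HSP78, and of 34.1% of the genes. HSP78 held 3 copies and MDJ1 held 2, and 8.13% of the genes held at least 2. None of these motifs occurred in the window of MGE1.

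Stretches that carry the matches of 3 units and of AGGGG follow, each from the RefSeq R64 genome, 5′ to 3′ on the coding strand of its gene, with the matched bases in capitals. A match on the opposite strand reads as its reverse complement, CCCCT for AGGGG. They are shown because these are the motifs known for the factors whose genes were targeted in 2 of the strains.
HSP60 (chrXII:665185-665227, minus strand, 3 alternating units): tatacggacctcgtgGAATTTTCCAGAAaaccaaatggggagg
HSP10 (chrXV:370977-371019, minus strand, 3 alternating units): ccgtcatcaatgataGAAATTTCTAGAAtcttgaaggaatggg
HSP78 (chrIV:974458-974505, minus strand, 2 overlapping matches of 3 units): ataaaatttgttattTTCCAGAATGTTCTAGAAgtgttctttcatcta
HSP78 (chrIV:974354-974454, minus strand, 3 stress response cores): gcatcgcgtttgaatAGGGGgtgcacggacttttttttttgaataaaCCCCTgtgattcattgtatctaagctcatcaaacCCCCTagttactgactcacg
SSC1 (chrX:521836-521899, minus strand, spaced units and 1 stress response core): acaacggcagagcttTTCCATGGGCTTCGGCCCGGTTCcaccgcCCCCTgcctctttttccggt
MDJ1 (chrVI:106356-106408, minus strand, spaced units): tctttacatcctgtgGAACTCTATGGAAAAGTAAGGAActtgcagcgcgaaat
MDJ1 (chrVI:106562-106623, minus strand, 2 stress response cores): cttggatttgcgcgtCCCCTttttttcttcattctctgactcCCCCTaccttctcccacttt
ECM10 (chrV:94423-94457, plus strand, 1 stress response core): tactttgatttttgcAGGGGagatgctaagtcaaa
The matches describe letters and not bound sites, and nothing is drawn from them, or from their absence, about either factor.

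**Figure D1:**
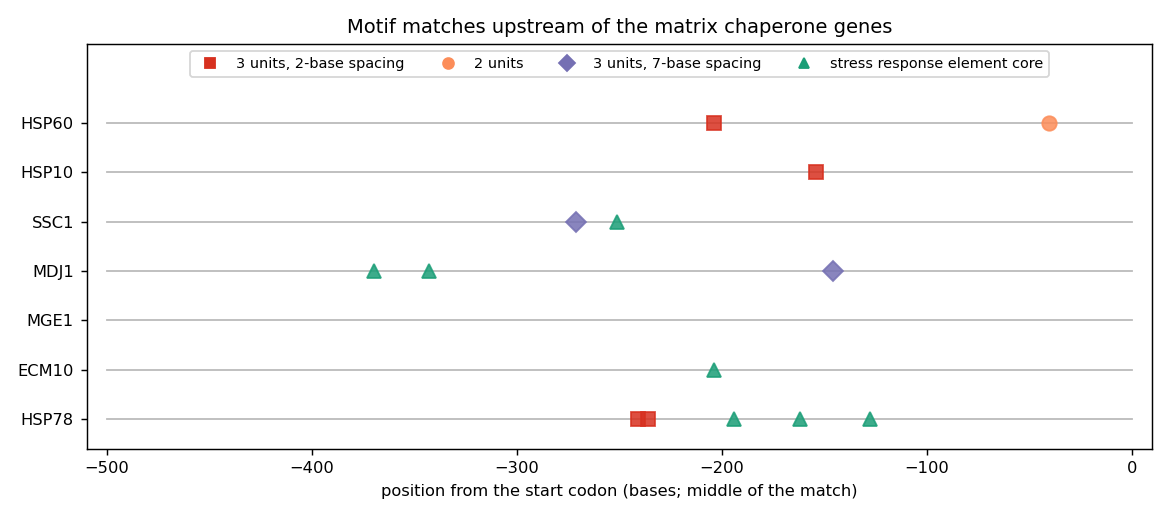
Positions of motif matches in the 500 bases before the start codon of each gene, in bases from the start codon. Squares are the 3 alternating units, circles 2 units outside it, diamonds the spaced form and triangles the core AGGGG. HSP60, HSP10 and HSP78 carry squares, SSC1 and MDJ1 carry diamonds, and MGE1 carries none.

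Total counts ran from 8159203 to 99558095 per library. Only 4 libraries (untreated WT 2 and 3, HSF1+ AzC 1 and 2) held 42724231 or more, and the other 32 held 15448180 or fewer. HSF1 transcripts stood at 98.4 ± 3.76 CPM (the usual counts-per-library unit, here relative to library sizes scaled by TMM; mean ± SD, n = 3) in untreated WT, 55.4 ± 1.52 in HSF1+ and 14.6 ± 2.15 in hsf1∆. MSN2 fell from 132.4 ± 3.12 CPM in untreated WT to 1.41 ± 0.596 in the strain labelled msn2/4∆. MSN4 stood at 52.9 ± 4.81 CPM there against 38.4 ± 7.53 in WT, so the untreated MSN4 transcript goes against the label. In treated cells of that strain MSN4 was present but below WT. It stood at 40.5 ± 0.471 CPM against 115.4 ± 10.4 after heat shock, and at 37.4 ± 4.41 against 68.8 ± 7.40 after AzC. The source of these MSN4 reads was not tested. The 6 a-cell markers summed to between 341 and 2138 CPM. The defining alpha-cell genes MF(ALPHA)1 and MF(ALPHA)2 had at most 37 and 24 counts in any library. The 8 genes of mitochondrial DNA in the table together had 0 to 20 counts per library. The 4 alpha-cell markers summed to between 48.6 and 111.7 CPM, most of it SAG1. CPM are shares of the RNA sequenced, so fewer transcripts per cell of one gene and more of all others cannot be told apart. No label says whether libraries of a group came from separate cultures, and p-values measure the spread between these libraries.

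Without stress the members differed widely in level. Per kb of coding sequence, HSP10 stood highest in untreated WT, at 919 CPM per kb, followed by SSC1 at 659, MGE1 at 395 and HSP60 at 380.3. MDJ1 at 75.2, HSP78 at 30.4 and ECM10 at 8.69 CPM per kb were far lower. The per-kb order rests on coding length, as the length over which reads were counted is not known. By CPM, HSP10 (295) lay below SSC1 (1296) and HSP60 (654) in untreated WT. After heat shock the WT order became HSP10 at 4957, HSP60 at 2283, SSC1 at 2217, HSP78 at 1458, MDJ1 at 511, MGE1 at 210.2 and ECM10 at 15.4 CPM per kb. HSP78 thus passed MGE1 and MDJ1. Together the 7 genes took 0.255% ± 0.00882 (SD, n = 3) of all counts in untreated WT, 1.41% ± 0.176 after heat shock and 1.16% ± 0.084 after AzC. In hsf1∆ the shares were 0.235% ± 0.00303, 0.336% ± 0.00919 and 0.237% ± 0.0136. HSP78 made up 2.73% of the members' counts in untreated WT and 24.8% after heat shock.

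**Figure D2:**
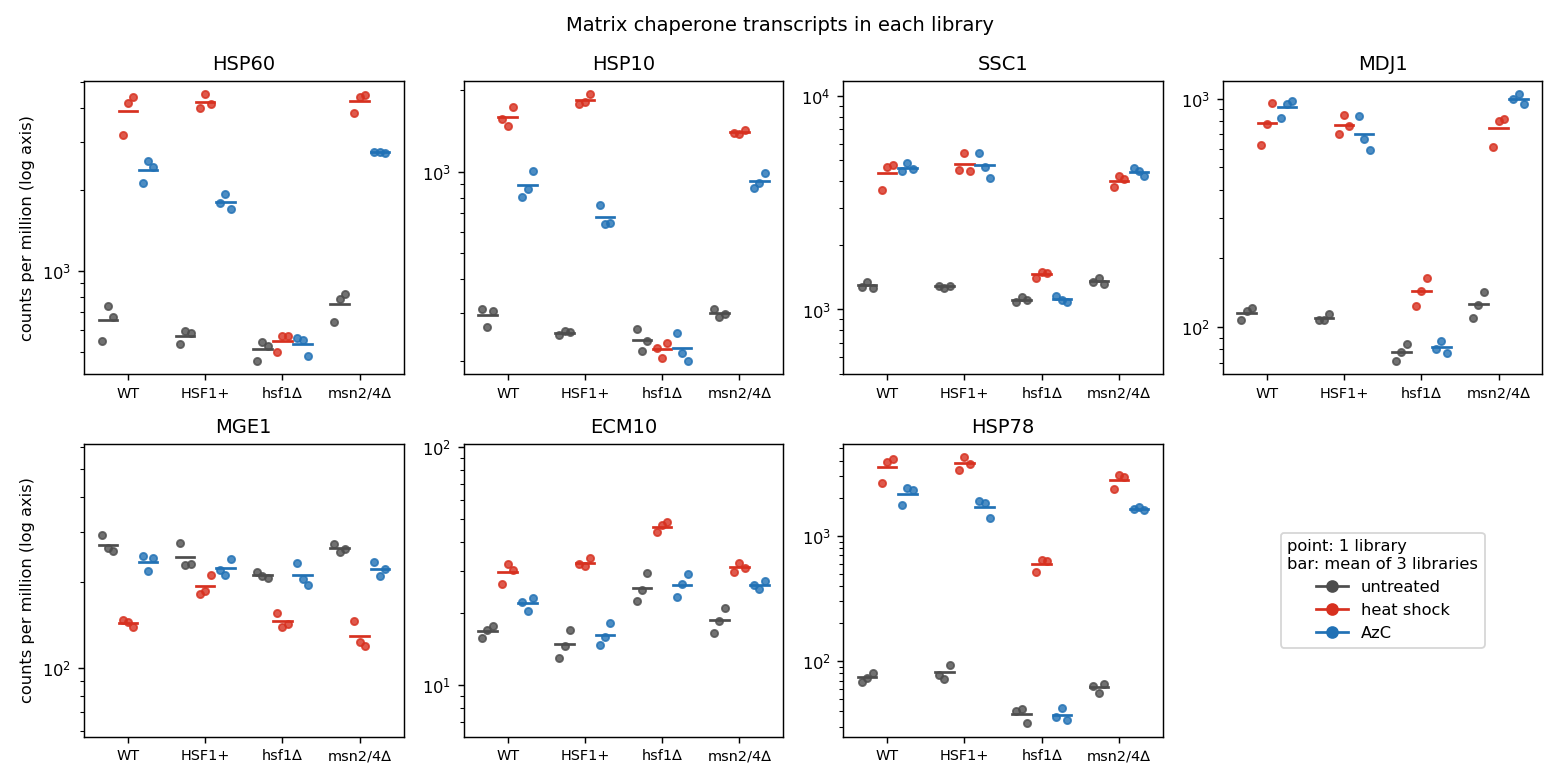
CPM of each gene in each of the 36 libraries, on log axes, by strain and condition. Points are libraries and bars are means of 3. Treated libraries of WT, HSF1+ and the strain labelled msn2/4∆ lie above the untreated ones for HSP60, HSP10, SSC1, MDJ1 and HSP78, and the hsf1∆ AzC libraries lie beside the untreated hsf1∆ ones.

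Heat shock raised 6 of the 7 transcripts in WT and lowered MGE1. In edgeR's quasi-likelihood test with Benjamini-Hochberg adjustment over the 6109 genes tested, all 7 passed an adjusted p of 0.05. Of all genes tested, 42% were called higher and 38.1% lower, so at this threshold a call is common in the whole table. With a minimum of 2-fold as well, 5 members were higher against 19.3% of all genes. The members' median log2 change was 2.43, against 0.05 over all genes.

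HSP60, the barrel subunit, had 547, 739 and 675 CPM in the 3 untreated WT libraries and 3187, 4189.6 and 4396 CPM after heat shock. Every heat-shocked library lay above every untreated one, and the log2 change was 2.59 ± 0.12 (SE), 6.0-fold. HSP10, its lid, had 312, 267 and 306 CPM untreated and 1568, 1469 and 1736 CPM after heat shock. It rose 5.40-fold, log2 2.43 ± 0.10, again without overlap.

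SSC1, the matrix Hsp70, had 1277, 1348 and 1263 CPM untreated and 3641, 4684 and 4743 CPM after heat shock. It rose 3.36-fold, log2 1.75 ± 0.10, from the highest starting count of the 7. Its J protein MDJ1 had 107.8, 117.7 and 120.8 CPM untreated and 629, 773 and 954 CPM after heat shock, a rise of 6.80-fold, log2 2.77 ± 0.14. The exchange factor MGE1 moved the other way. It had 294, 264 and 257 CPM untreated and 148, 146 and 139.6 CPM after heat shock, with no overlap, and fell by 0.91 ± 0.08 on the log2 scale. The 3 partners of the Ssc1 cycle therefore did not change together.

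HSP78 changed most. It had 68.6, 73.4 and 80.4 CPM untreated and 2652, 3919.8 and 4084 CPM after heat shock, a rise of 47.9-fold, log2 5.58 ± 0.19. The lowest heat-shocked library was replicate 1. In each of the 4 strains the heat-shock response of replicate 1 over all genes had a slope of 0.883 to 0.937 on the mean response of the strain, against 1.01 to 1.09 for replicates 2 and 3. That mean takes in every replicate of the strain, so a low slope for replicate 1 goes with higher slopes for the others. ECM10 stayed rare, at 15.7, 17.0 and 17.8 CPM untreated and 26.6, 32.1 and 30.6 CPM after heat shock. It rose 1.76-fold, log2 0.82 ± 0.11. SSC1 and ECM10 are 76.7% identical in aligned coding sequence, with no shared run longer than 26 bases, and HSP78 and HSP104 are 66.7% identical with none longer than 17, so reads spanning more than such a run differ between the copies.

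HSF1+ and the strain labelled msn2/4∆ responded to heat shock like WT in direction. In HSF1+, 6 members rose and MGE1 fell, against 40% and 36.5% of all genes. HSP60 rose 7.36-fold, HSP10 7.27-fold, SSC1 3.73-fold, MDJ1 7.0-fold, ECM10 2.20-fold and HSP78 46.7-fold. In the strain labelled msn2/4∆ the counts were again 6 and 1, against 43.5% and 34% of all genes. There HSP60 rose 5.67-fold, HSP10 4.67-fold, SSC1 2.96-fold, MDJ1 5.91-fold, ECM10 1.67-fold and HSP78 45.2-fold, and MGE1 fell by 1.02 ± 0.08 on the log2 scale.

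In hsf1∆ the heat-shock response came apart by gene. HSP60 had 463, 543 and 523 CPM untreated and 498, 574 and 571 CPM after heat shock, and the ranges overlapped (log2 0.10 ± 0.12, adjusted p = 0.425 in edgeR's test). HSP10 had 262, 217 and 237 CPM untreated and 222, 205 and 233 CPM after heat shock, also overlapping, with a log2 difference of -0.12 ± 0.09 and an adjusted p of 0.251 by edgeR. Without the first untreated hsf1∆ library that difference was 0.03. The 95% intervals of these differences, -0.14 to 0.34 for HSP60 and -0.31 to 0.07 for HSP10, exclude a 2-fold rise.

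HSP78, in contrast, still rose in hsf1∆. It had 40.2, 41.3 and 31.8 CPM untreated and 513, 646 and 626 CPM after heat shock, far apart, for a rise of 15.8-fold, log2 3.98 ± 0.18. MDJ1 rose 1.86-fold, from 71.3, 77.7 and 84.2 CPM to 123.6, 144 and 165 CPM. SSC1 rose 1.31-fold, from 1085, 1146 and 1106 CPM to 1405, 1499.8 and 1479 CPM. Neither overlapped. ECM10 rose 1.80-fold, from 22.5, 25.1 and 29.5 CPM to 43.8, 46.9 and 48.3 CPM, and MGE1 fell by 0.53 ± 0.08 on the log2 scale. In total, 4 members rose and 1 fell, against 38.2% and 38.4% of all genes. With the 2-fold minimum HSP78 was the only member higher, against 14.8%.

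**Figure D3:**
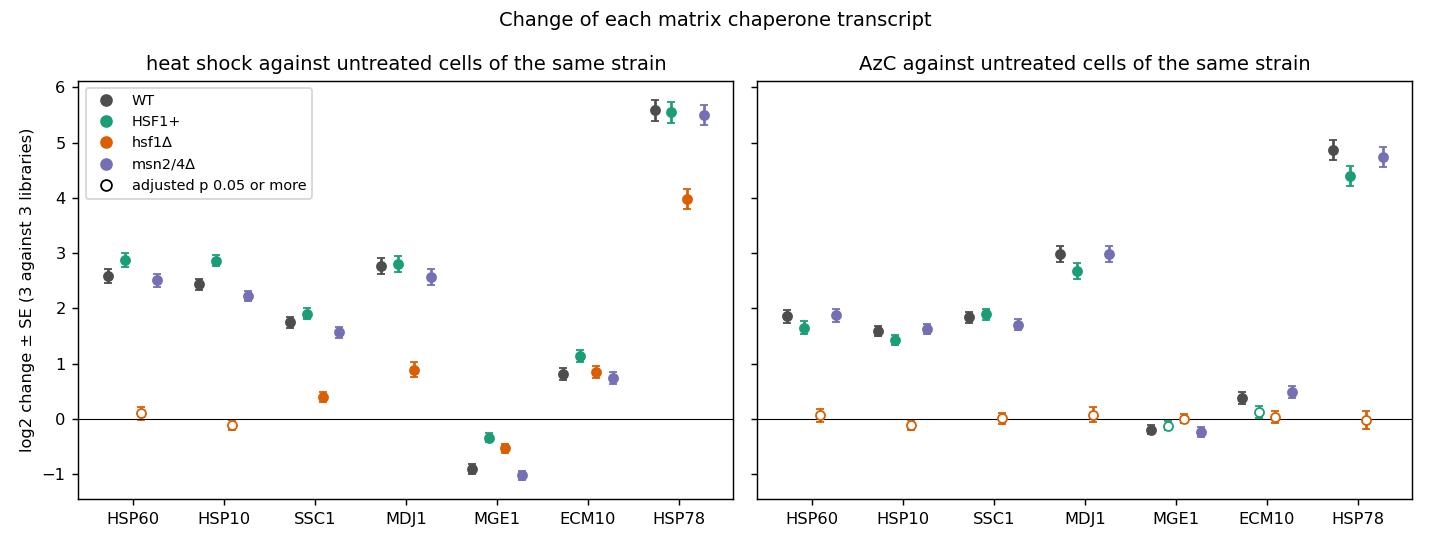
Log2 change of each gene after heat shock (left) and AzC (right) against untreated cells of the same strain, with SE, from 3 against 3 libraries. Open points did not pass an adjusted p of 0.05. In hsf1∆, HSP78 stands at 3.98 after heat shock and at -0.01 after AzC.

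AzC raised the same 6 members in WT, and the size ranked differently from heat. MDJ1 had 819.8, 953 and 981 CPM after AzC against 107.8, 117.7 and 120.8 CPM untreated, a rise of 7.95-fold (log2 2.99 ± 0.15). HSP60 had 2118, 2542 and 2435 CPM after AzC and rose 3.62-fold (log2 1.85 ± 0.12). HSP10 had 808, 860.3 and 1001 CPM and rose 3.02-fold. None of these libraries overlapped the untreated ones.

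SSC1 had 4486, 4852 and 4550.5 CPM after AzC and rose 3.57-fold. HSP78 had 1752, 2423 and 2309 CPM and rose 29.1-fold, log2 4.86 ± 0.18. ECM10 rose 1.30-fold. MGE1 had 248, 219 and 243 CPM and was lower, at log2 -0.20 ± 0.08, a small difference without overlap and with an adjusted p of 0.0387 in edgeR's test. That call was lost without untreated WT library 1 (log2 -0.14) or AzC library 2 (-0.14) or 3 (-0.22), and with scaling by library size alone (-0.05). Of all genes tested, 34.2% were higher and 32.7% lower after AzC in WT. With the 2-fold minimum 5 members were higher, against 10.1%.

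After AzC in HSF1+, 5 members rose (HSP60 3.14-fold, HSP10 2.69-fold, SSC1 3.71-fold, MDJ1 6.37-fold and HSP78 21.1-fold), against 23% of all genes. ECM10 (log2 0.12 ± 0.11) and MGE1 (log2 -0.13 ± 0.08) did not pass. None of the members was lower there at an adjusted or an unadjusted p of 0.05 in edgeR, or in DESeq2, against 21.9% of all genes called lower. In the strain labelled msn2/4∆, 6 members rose and MGE1 was lower, against 36% and 31% of all genes. There MDJ1 rose 7.93-fold and HSP78 26.6-fold. MGE1 stood at log2 -0.24 ± 0.08, a call lost without the first untreated library (-0.21) and with scaling by library size alone (-0.04).

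In hsf1∆, no member passed the test after AzC. The log2 changes lay between -0.11 for HSP10 and 0.07 for MDJ1, and every member's treated and untreated libraries overlapped. HSP78 had 40.2, 41.3 and 31.8 CPM untreated and 35.8, 42.2 and 34.1 CPM after AzC, with a 95% interval of -0.35 to 0.32 on the log2 scale. The interval that reached highest was that of MDJ1, -0.21 to 0.36. The count of members was 0 in either direction also at an unadjusted p of 0.05 in edgeR's test and in DESeq2. In the whole table edgeR called 0% of genes higher and 0.0164% lower.

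AzC and heat shock, set against each other within a strain, differed by member. The treatments differ in time and temperature as well as in agent. In WT, HSP60 was lower after AzC than after heat shock, at log2 -0.73 ± 0.12, HSP10 at -0.84 ± 0.09, ECM10 at -0.44 ± 0.11 and HSP78 at -0.72 ± 0.15. SSC1 (log2 0.09 ± 0.10) and MDJ1 (log2 0.22 ± 0.13) did not pass, with 95% intervals of -0.11 to 0.28 and -0.05 to 0.50. MGE1 was higher after AzC, by log2 0.71 ± 0.08. The counts were 1 higher and 4 lower, against 30.5% and 32.7% of all genes. Without heat-shocked WT library 3, 2 were higher.

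In HSF1+ the same 4 members were lower after AzC than after heat shock, against 34.8% of all genes, HSP10 by the most (log2 -1.44 ± 0.09). MGE1 was the 1 member higher, against 34.7% of all genes, at log2 0.22 ± 0.08. It lost its call without heat-shocked HSF1+ library 1 or 2 (log2 0.17 and 0.19) or AzC library 3 (0.16). In the strain labelled msn2/4∆ 4 members were lower and 2 higher, against 29.6% and 28.1%. MGE1 was higher at log2 0.78 ± 0.08 and kept its call without each library. MDJ1 was higher at log2 0.42 ± 0.13, and its call was lost without the first heat-shocked library (0.30). ECM10, among those lower, stood at log2 -0.25 ± 0.11 and lost its call without any 1 of the 3 AzC libraries (-0.25, -0.22 and -0.27) or heat-shocked library 2 or 3 (-0.21 and -0.25). DESeq2 did not call ECM10 there (adjusted p = 0.0778), and edgeR did not with RLE size factors (0.0806), library size alone (0.113), no filter on low counts (0.0711) or the deep libraries thinned (0.0561). In hsf1∆, where AzC changed no member, 4 were lower after AzC than after heat shock and 1 higher, against 37.9% and 38.3%. HSP78 differed there by log2 -3.99 ± 0.18.

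The strain without HSF1 was compared with HSF1+, which carries the same cassette but also LYS2. HSF1 transcripts in untreated HSF1+ stood at 55.4 CPM, against 98.4 in untreated WT. Before any treatment HSP78 was the member furthest below HSF1+ in hsf1∆. It had 40.2, 41.3 and 31.8 CPM in hsf1∆ and 77.9, 72.3 and 93.6 CPM in HSF1+, without overlap, a log2 difference of -1.11 ± 0.16 with an adjusted p of 3.73e-06 in edgeR's test. MDJ1 was lower, at log2 -0.50 ± 0.14, from 107.4, 107.6 and 114.6 CPM in HSF1+ to 71.3, 77.7 and 84.2 CPM in hsf1∆. MGE1 was lower, at log2 -0.21 ± 0.08. The MGE1 call was lost without untreated HSF1+ library 1 (-0.13), or untreated hsf1∆ library 2 (-0.24) or 3 (-0.23). It was lost too with scaling by library size alone (-0.09), with no filter on low counts (-0.22, adjusted p = 0.0503 by edgeR), with the compared groups alone (-0.16) and with replicates 2 and 3 alone (-0.15).

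ECM10 ran the other way. It had 22.5, 25.1 and 29.5 CPM in untreated hsf1∆ against 12.9, 14.5 and 17.0 CPM in HSF1+, without overlap, and was higher in hsf1∆ by log2 0.79 ± 0.11. HSP60 (-0.17 ± 0.12), HSP10 (-0.09 ± 0.09) and SSC1 (-0.21 ± 0.10) did not pass. SSC1 passed in DESeq2 (log2 -0.24, adjusted p = 0.0312), and HSP10 stood at 0.04 with scaling by library size alone. In total, 1 member was higher and 3 were lower, against 19.5% and 18.9% of all genes. Scaling by library size alone moved the median log2 change of all genes by 0.12 in this comparison, and by -0.18 to 0.20 over all the comparisons made here.

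After heat shock the gap between hsf1∆ and HSF1+ reached 6 members. HSP10 was 8.37-fold lower in hsf1∆ (log2 -3.07 ± 0.10) and HSP60 7.70-fold lower (log2 -2.95 ± 0.13). HSP78 was 6.37-fold lower, MDJ1 5.33-fold and SSC1 3.28-fold. MGE1 was lower, at log2 -0.41 ± 0.08, and ECM10 higher by log2 0.50 ± 0.10. For MGE1 it was HSF1+ that stood apart after heat shock, at a mean of 193.9 CPM. The hsf1∆ mean of 146.3 CPM lay beside 144.4 CPM for WT, with overlapping ranges. The msn2/4∆-labelled strain had 130.1 CPM. Of all genes, 31.5% were lower and 23.2% higher, and with the 2-fold minimum 5 members were lower, against 6.51%.

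After AzC, HSP78 was 45.8-fold lower in hsf1∆ than in HSF1+ (log2 -5.52 ± 0.19), with 35.8, 42.2 and 34.1 CPM against 1895, 1846 and 1392 CPM. MDJ1 was 8.55-fold lower, SSC1 4.26-fold, HSP60 3.38-fold and HSP10 3.07-fold. ECM10 was again higher, by log2 0.71 ± 0.11. MGE1 (log2 -0.09 ± 0.08) did not pass, and had the opposite sign (0.08) with scaling by library size alone. Of the members 5 were lower and 1 higher, against 24.8% and 21% of all genes.

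**Figure D4:**
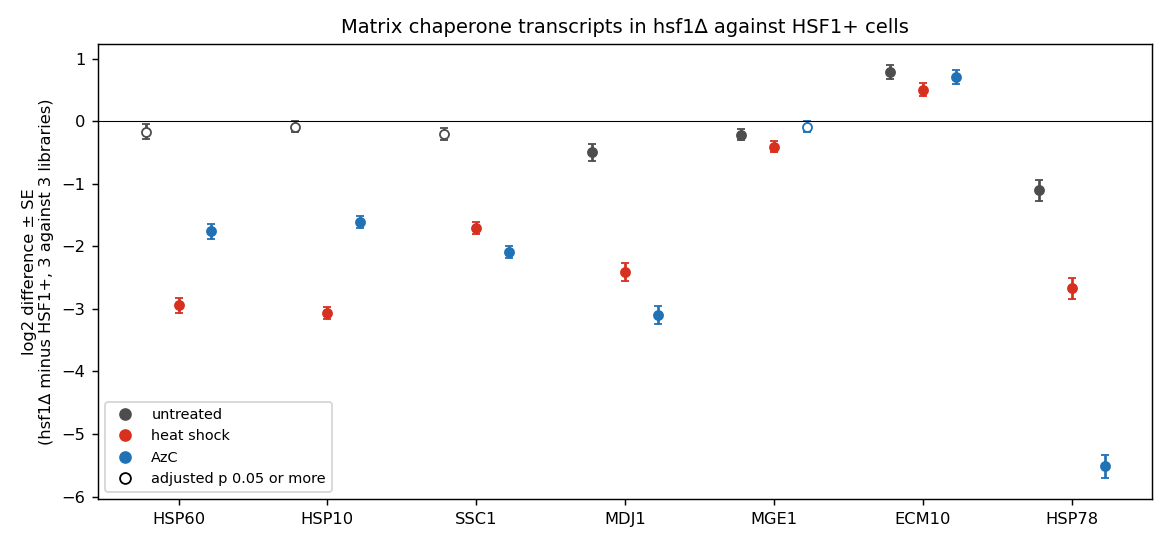
Log2 difference between hsf1∆ and HSF1+ for each gene, with SE, in untreated, heat-shocked and AzC-treated cells, from 3 against 3 libraries. Open points did not pass an adjusted p of 0.05. ECM10 lies above 0 in all 3 conditions, and HSP78 lies at -1.11, -2.67 and -5.52.

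The difference between the responses of hsf1∆ and HSF1+ was tested as an interaction in the same fit. Under heat shock 5 members responded less in hsf1∆, against 14.2% of all genes, and none more, against 8.04%. The log2 differences of response were -2.98 ± 0.13 for HSP10, -2.78 ± 0.17 for HSP60, -1.92 ± 0.20 for MDJ1, -1.56 ± 0.22 for HSP78 and -1.51 ± 0.14 for SSC1. MGE1 (-0.19 ± 0.12) and ECM10 (-0.29 ± 0.15) did not pass. Both turned positive with WT in place of HSF1+, at 0.38 for MGE1, which then passed, and at 0.03 for ECM10. With replicates 2 and 3 alone MGE1 passed at -0.35. With the replicate block ECM10 passed at -0.29 (adjusted p = 0.0384 by edgeR), which made 6 members with the smaller response.

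Under AzC the same 5 responded less, against 13% of all genes, and none more, against 7.55%. In hsf1∆ alone edgeR called 0% of all genes higher and 0.0164% lower after AzC. The AzC differences are therefore close to the HSF1+ responses with the sign reversed, for members and other genes alike. HSP78 led with -4.41 ± 0.23, followed by MDJ1 (-2.60 ± 0.20), SSC1 (-1.88 ± 0.14), HSP60 (-1.59 ± 0.17) and HSP10 (-1.53 ± 0.13). No member responded more in hsf1∆ under either treatment at an unadjusted p of 0.05 in edgeR or in DESeq2. For HSP60 and HSP10 the difference of response was larger under heat shock, where their rise in HSF1+ was also larger. Neither passed in hsf1∆ under either treatment. For HSP78, MDJ1 and SSC1 the difference of response was larger under AzC, and these rose in hsf1∆ under heat shock only. The difference between the 2 interactions was not itself tested.

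HSF1+ and WT, which differ in the cassette, in LYS2 and in HSF1 transcript level, were compared in each condition. In untreated cells no member passed between HSF1+ and WT by edgeR. HSP10, at log2 -0.22 ± 0.09, passed an unadjusted p of 0.05, DESeq2, and the fit that pairs libraries by replicate number (-0.22, adjusted p = 0.0432), and 1 member was lower also without the second untreated WT library. Over all genes 17.5% were called higher and 12.6% lower. After heat shock MGE1 was higher in HSF1+ by log2 0.42 ± 0.08, the 1 member called higher, against 15.7%. HSP10 joined it in the paired fit (log2 0.21, adjusted p = 0.0429 by edgeR), and 2 members were higher without the third heat-shocked WT library. None was lower in edgeR at an unadjusted p of 0.05 or in DESeq2, against 16.1% of all genes.

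After AzC, 4 members were lower in HSF1+ than in WT: HSP60 (log2 -0.40 ± 0.12), HSP10 (-0.39 ± 0.09), MDJ1 (-0.39 ± 0.13) and ECM10 (-0.45 ± 0.11), against 20.8% of all genes. At an unadjusted p of 0.05 and in DESeq2 5 were lower, with HSP78 (log2 -0.34 ± 0.15) as the added member. None was higher by any of the 3, against 23% of all genes. HSF1 itself stood at 101.3 ± 15.6 CPM in AzC-treated HSF1+ and at 172 ± 3.91 CPM in WT, and its part in the difference was not tested. The MDJ1 call was lost without HSF1+ AzC library 2 (-0.36) or 3 (-0.29) or WT AzC library 2 (-0.36) or 3 (-0.34). As differences of response under heat shock, HSP10 (0.43 ± 0.13) and MGE1 (0.57 ± 0.12) were higher in HSF1+ than in WT, against 4.21% of all genes. HSP10 rose more in HSF1+, while MGE1 fell less there (log2 -0.34 in HSF1+ and -0.91 in WT). At an unadjusted p of 0.05, and with the replicate block (log2 0.32, adjusted p = 0.0296 by edgeR), ECM10 was also higher, which made 3. None was lower, at an unadjusted p of 0.05 or in DESeq2 either, against 7.56%. HSP10 lost that call without any untreated HSF1+ library (0.42, 0.44 and 0.43), untreated WT library 1 or 3 (0.39 and 0.40), heat-shocked HSF1+ library 3 (0.39) or heat-shocked WT library 2 (0.38). Under AzC no response differed by edgeR or DESeq2, against 11.3% higher and 11.2% lower among all genes. HSP78 (log2 -0.47 ± 0.22) passed an unadjusted p of 0.05. There 4 members responded less with scaling by library size alone, and 1 did without the first WT AzC library.

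Between the strain labelled msn2/4∆ and WT no member passed in any condition in the edgeR fit without replicate pairing, while 2 passed with it. In untreated cells none passed an unadjusted p of 0.05 or DESeq2 either, against 0.262% higher and 0.786% lower of all genes. HSP78 was the member furthest below WT. It had 63.8, 55.8 and 66.2 CPM untreated, 2376, 3067 and 2959 CPM after heat shock and 1645, 1704 and 1602 CPM after AzC, which lay below every WT library untreated and after AzC and overlapped WT after heat shock. Its log2 differences from WT were -0.26 ± 0.16 untreated, -0.34 ± 0.15 after heat shock (adjusted p = 0.0628 by edgeR) and -0.39 ± 0.15 after AzC (adjusted p = 0.086).

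With libraries paired by replicate number HSP78 passed in this strain after heat shock (log2 -0.34, adjusted p = 0.0390 in edgeR's blocked fit) and after AzC (-0.38, adjusted p = 0.0474), and ECM10 was higher after AzC (0.26, adjusted p = 0.0123). Without the first heat-shocked WT library HSP78 stood at -0.52 and 2 members were lower. Without the first heat-shocked library of the strain 1 was lower, and without the first WT AzC library HSP78 stood at -0.52 and 1 was lower. At an unadjusted p of 0.05, edgeR called 1 member lower after heat shock, and 1 lower and 1 higher after AzC. DESeq2 called none. Over all genes 27.8% were higher and 25.1% lower after heat shock, and 7.82% and 7.68% after AzC. As responses, no member differed between this strain and WT by edgeR, at an unadjusted p of 0.05 or by DESeq2, against 16.3% higher and 13.9% lower of all genes under heat shock, and 0.524% and 1.05% under AzC. For HSP78 the 95% intervals of the difference of response were -0.53 to 0.37 under heat shock and -0.58 to 0.32 under AzC.

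Set against WT instead of HSF1+, untreated hsf1∆ cells had 6 members lower and ECM10 higher, against 28.1% and 30.6% of all genes. The differences ran from log2 -0.22 ± 0.10 for SSC1 to -0.98 ± 0.16 for HSP78, and ECM10 stood at 0.61 ± 0.11. The SSC1 call was lost without any 1 of the 3 untreated WT libraries (-0.23, -0.19 and -0.24) and that of HSP60 (log2 -0.36 ± 0.12) without the second (-0.26). With scaling by library size alone 2 members were lower and 1 higher.

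Ratios of 2 members within a library do not depend on scaling between libraries. They were compared per kb of coding sequence, treated against untreated, within WT, HSF1+ and the strain labelled msn2/4∆ (9 against 9 libraries), by an exact two-sided permutation test within strains, adjusted over 12 tests. The smallest p the design allows is 0.00025. SSC1 to MGE1 stood at 1.52, 1.79 and 1.72 in untreated WT, at 8.61, 11.2 and 11.9 after heat shock and at 6.32, 7.75 and 6.54 after AzC. The Hsp70 transcript thus rose from less than 2 to more than 8 times that of its exchange factor in each heat-shocked WT library. The mean log2 difference over the 3 strains was 2.49 for heat shock and 1.99 for AzC (exact permutation, adjusted p = 0.000375 for both). In hsf1∆, which was not in the test, it was 0.93 and 0.01.

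SSC1 to MDJ1 fell, from 9.26, 8.95 and 8.17 in untreated WT to 4.52, 4.74 and 3.89 after heat shock and 4.28, 3.98 and 3.62 after AzC. The J protein transcript gained on its Hsp70: over the 3 strains the log2 ratio fell by 0.97 under heat shock and fell by 1.07 under AzC (exact permutation, adjusted p = 0.000375). SSC1 to its paralog ECM10 rose by log2 0.83 under heat shock and 1.47 under AzC (same adjusted p in the exact permutation test). In hsf1∆ the change was -0.46 and -0.04. HSP78 to HSP60 rose by 2.88 and 2.86 (same adjusted p, exact permutation), from 0.0886, 0.07 and 0.084 in untreated WT to 0.587, 0.66 and 0.656 after heat shock. In hsf1∆ it rose further under heat shock, by 3.88, and changed by -0.08 under AzC.

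HSP60 to HSP10 moved little. It stood at 0.328, 0.516 and 0.413 in untreated WT, 0.379, 0.533 and 0.473 after heat shock and 0.489, 0.552 and 0.454 after AzC, with overlapping ranges, so that HSP10 exceeded HSP60 per kb in each library. The difference was 0.15 for heat shock (exact permutation, adjusted p = 0.158) and 0.25 for AzC (adjusted p = 0.0103), and the AzC call was lost without replicate 1 (0.16). With libraries of the same replicate number swapped together, heat shock reached an adjusted p of 0.0234.

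HSP78 to HSP104, its cytosolic relative, differed by 0.02 under heat shock and -0.12 under AzC (exact permutation, adjusted p = 0.840 and 0.217). Over strains the sign was not shared. Under heat shock the ratio changed by 0.01 in WT, 0.47 in HSF1+, 0.53 in hsf1∆ and -0.43 in the strain labelled msn2/4∆, where it went from 0.273, 0.235 and 0.265 to 0.177, 0.196 and 0.199. No heat-shocked library of that strain overlapped the untreated ones. The difference between strains was not tested.

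**Figure D5:**
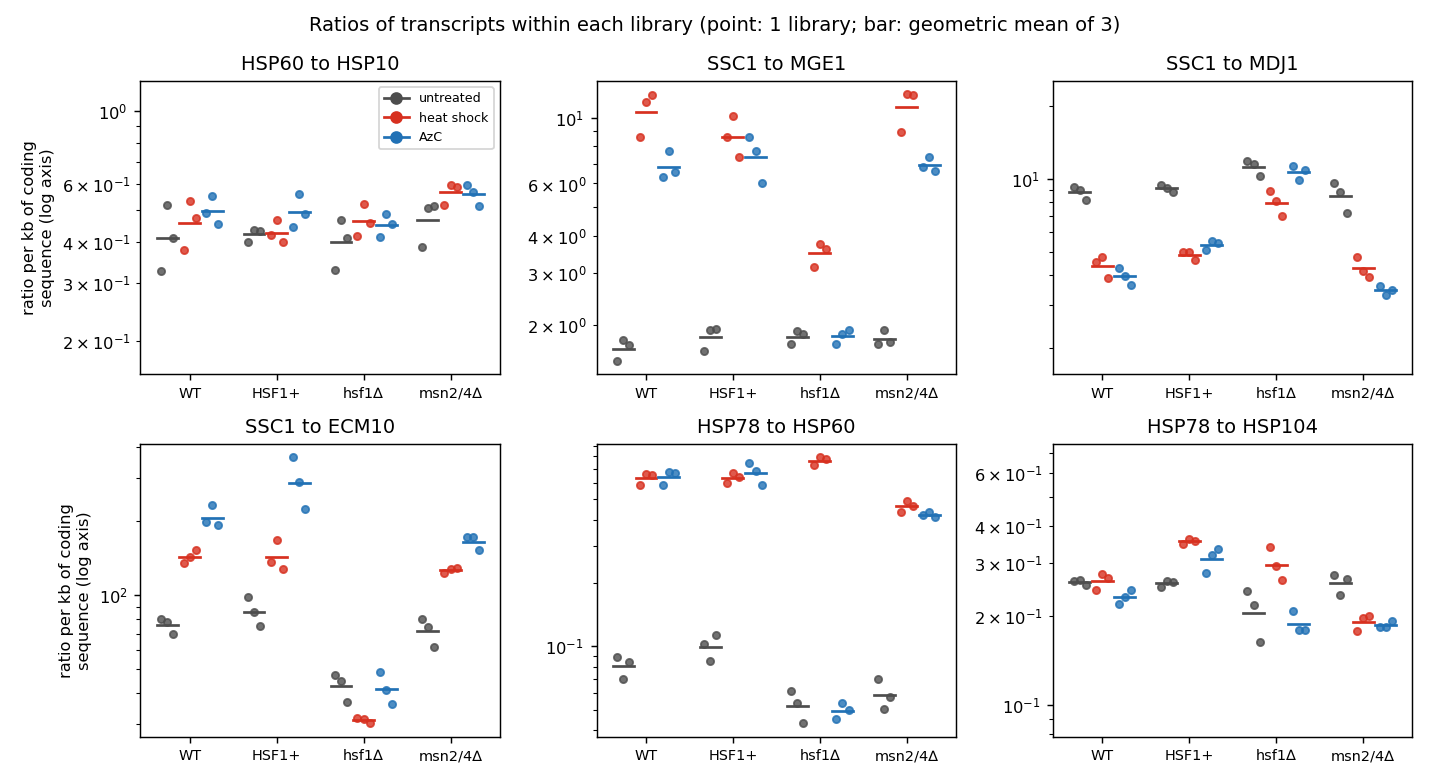
Ratios of counts per kb within each library on log axes, by strain and condition, with points for libraries and bars for geometric means of 3. SSC1 to MGE1 stands near 1.67 in untreated WT and at 10.5 after heat shock, while HSP60 to HSP10 stays between 0.328 and 0.598 in all 36 libraries.

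Across the 12 groups, the span from the lowest to the highest group mean was 101.6-fold for HSP78, 12.8-fold for MDJ1, 8.37-fold for HSP10, 8.35-fold for HSP60, 4.31-fold for SSC1, 3.12-fold for ECM10 and 2.09-fold for MGE1. Between neighbours in the order of group means, the library ranges overlapped in 7 of 11 pairs for HSP60 and HSP78, 5 for HSP10, 9 for SSC1 and MDJ1, and 10 for MGE1 and ECM10. For HSP78 the order ran from the 2 hsf1∆ groups without heat shock (37.3 ± 4.24 and 37.8 ± 5.22 CPM) through the 3 other untreated groups to heat-shocked hsf1∆ at 595 ± 71.9 CPM. Above it lay the AzC groups and then the heat-shock groups of the other strains, up to 3793 ± 444 CPM in HSF1+. For SSC1 all treated groups of the 3 strains with an HSF1 gene lay above heat-shocked hsf1∆ (1461 ± 49.5 CPM), the nearest being 4024 ± 262 CPM. For ECM10 the highest group was heat-shocked hsf1∆, at 46.3 ± 2.31 CPM, separate from the next at 32.7 ± 1.40 CPM.

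Patterns over the 12 group means of log CPM, which share libraries and scaling, were most alike within 2 pairs. Pearson's r was 0.994 for HSP60 with HSP10 and 0.993 for SSC1 with MDJ1. Between a gene of one pair and a gene of the other it was still 0.929 to 0.949. HSP78 had r of 0.899 to 0.95 with these 4. MGE1 had r of -0.54 to -0.32 with the other members but ECM10, with which it had -0.79. Among 5240 genes, those most like HSP60 were CPR6, an Hsp90 co-chaperone (0.985), SSA4, a heat-inducible cytosolic Hsp70 (0.977), AHA1, an activator of the Hsp90 ATPase (0.976), HCH1, a relative of AHA1 (0.971), and MCH1 (0.962). Those most like HSP78 were HSP104 (0.994), ADR1, a transcription factor of alternative carbon use (0.984), CUZ1 (0.979), KAR2, the Hsp70 of the endoplasmic reticulum (0.978), and YJL144W (0.977).

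Other genes of the matrix folding and import pathways were counted in lists chosen by function. A list of 7 further genes held specialised Hsp70 and J proteins and their helpers, and also MCX1 and TCM62, which are not of those kinds. After heat shock in WT 6 of the 7 rose and none fell, against 42% and 38.1% of all genes. The median log2 change of the list was 0.68 against 0.05. ISU1, the scaffold on which iron-sulfur clusters are built, rose by log2 1.56 ± 0.17 and MDJ2, a J protein, by 0.79 ± 0.19. MCX1, a matrix ATPase, stood at -0.12 ± 0.08. In heat-shocked hsf1∆ 5 rose and none fell, against 38.2% and 38.4% of all genes. ISU1 rose by 1.53 ± 0.17 there and JAC1, a J protein, by 0.77 ± 0.09, and MCX1 stood at -0.13 ± 0.08. After AzC in WT, 3 rose and 1 fell, against 34.2% and 32.7% of all genes. ZIM17, which keeps Ssc1 soluble, rose by 0.36 ± 0.10 and TCM62 by 0.24 ± 0.10, and MCX1 fell by 0.43 ± 0.08.

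Most genes of the channel and motor through which matrix proteins enter fell after heat shock. Of 9 genes of the presequence translocase, 1 rose and 6 fell after heat shock in WT (median log2 change -0.33), against 42% and 38.1% of all genes. PAM17 rose by log2 0.25 ± 0.08, and TIM44, which docks Ssc1 at the channel, stood at 0.02 ± 0.06. PAM18, the J protein of the import motor, fell by 1.10 ± 0.09. In heat-shocked hsf1∆ none rose and 7 fell, against 38.2% and 38.4%. TIM17, a channel subunit, fell by 1.01 ± 0.09 there, while PAM17 (0.08 ± 0.08) and MGR2 (-0.0012 ± 0.08) did not pass. After AzC in WT 2 rose and 4 fell, against 34.2% and 32.7%, with PAM17 up by 0.24 ± 0.08, MGR2 up by 0.17 ± 0.08 and PAM18 down again, by 0.79 ± 0.09 on that scale. Of 16 genes of the outer membrane and carrier import pathways, 1 rose and 12 fell after heat shock in WT, against 42% and 38.1% of all genes. TIM9 rose by log2 0.45 ± 0.12 while its partner TIM10, with which it escorts proteins across the intermembrane space, fell by 1.06 ± 0.08. TOM7 stood at -0.07 ± 0.11. In heat-shocked hsf1∆ 1 rose and 14 fell, against 38.2% and 38.4%, with TIM9 at 0.47 ± 0.11, TIM10 at -1.05 ± 0.08 and TOM7, which did not pass, at 0.18 ± 0.12. After AzC in WT 1 rose and 5 fell, against 34.2% and 32.7%, TOM71 rising by 0.23 ± 0.07 and TIM10 falling by 0.50 ± 0.08. TOM70 stood at 0.14 ± 0.07.

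Most mitochondrial proteases and their partners rose under both treatments. Of 17, 15 rose and 1 fell after heat shock in WT (median log2 change 0.61), and 16 rose and 1 fell after AzC (0.64), against 42% and 38.1% of all genes after heat shock and 34.2% and 32.7% after AzC. MGR1, an adaptor of the inner membrane protease Yme1, rose by log2 1.42 ± 0.08 under heat shock, and PIM1, the matrix Lon protease, by 1.05 ± 0.07. Under AzC PRD1, an oligopeptidase, rose by 1.48 ± 0.07 and PIM1 by 1.24 ± 0.07. ATP23, a protease and assembly factor of the ATP synthase, fell by 0.25 ± 0.09 and by 0.22 ± 0.09 on that scale. In hsf1∆ 8 rose and 5 fell after heat shock, against 38.2% and 38.4% of all genes, MGR1 by 1.66 ± 0.08 and PRD1 by 0.64 ± 0.07 upward and ATP23 by 0.75 ± 0.09 downward. After AzC none of the 17 passed there, against 0% of all genes called higher and 0.0164% lower. As an interaction, 10 responded less in hsf1∆ than in HSF1+ to heat shock and 14 to AzC, against 14.2% and 13% of all genes, and none more, against 8.04% and 7.55%.

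Cytosolic relatives of these chaperones were counted in the same way. Of 17 (the Hsp70s, their co-chaperones, HSP104 and the chaperonin CCT), 9 rose and 5 fell after heat shock in WT, against 42% and 38.1% of all genes. After AzC 16 rose and none fell, against 34.2% and 32.7%. SSA4 rose by log2 8.52 ± 0.24 and HSP104 by 5.56 ± 0.21 under heat shock, and by 7.51 ± 0.23 and 5.03 ± 0.20 under AzC. CCT7, a subunit of the cytosolic chaperonin, fell by 0.75 ± 0.08 under heat shock, where HSP60 rose by 2.59 ± 0.12, and stood at 0.16 ± 0.08 under AzC. In hsf1∆ after heat shock HSP104 rose by 3.47 ± 0.19 and SSA2, which the cassette also carries and whose reads may be split with its near copy SSA1, by 2.04 ± 0.17. CCT8 fell by 1.24 ± 0.10. In hsf1∆ 6 rose and 9 fell after heat shock, against 38.2% and 38.4% of all genes. All 17 were lower in hsf1∆ than in HSF1+ after heat shock and after AzC, against 31.5% and 24.8% of all genes. Both strains carry the cassette with YDJ1 and SSA2.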

How the data were processed

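The 36 libraries were poly(A)-selected RNA-seq from yeast. The authors deposited whole-number counts per gene, and per the submitters' processing notes the tools included Trim Galore, FastQC, STAR and Salmon with the genome build R64. For the counting step, its strand setting, its annotation and the versions of the tools, the sources used here give nothing. Totals per library ran from 8159203 to 99558095 counts, with a median of 13193875. The members and lists were chosen with earlier results of these data known.

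From the deposited counts, genes were kept by edgeR's filter on low counts by group (6109 genes, all 7 members among them) and scaled by TMM. Group means of 12 groups were fitted in edgeR 4.0.16 (R 4.3.3) with the quasi-likelihood test, and 28 comparisons were tested, with Benjamini-Hochberg adjustment over all genes of each. A call is an adjusted p under 0.05. Levels are CPM from the scaled library sizes, and per-kb values divide by coding length. Group labels come from the sample titles. Genes of the lists are named by rule: the 2 largest and the smallest log2 change of each pathway list in the heat-shock and AzC comparisons of WT and the heat-shock comparison of hsf1∆. The genes most like HSP60 and HSP78 are the 5 with the highest Pearson's r over group means.

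Libraries with the same replicate number deviated together (every correlation over 0.1) for both treatments of WT, for AzC against heat shock in WT, HSF1+ and the strain labelled msn2/4∆, for HSF1+ and that strain against WT, for hsf1∆ against WT, and for hsf1∆ against HSF1+ after heat shock. No label says that the number marks a shared culture or day. Promoter letters were read from the R64 genome with Biopython 1.88. Alternatives were DESeq2 1.42.0, other scalings, no filter, the replicate block, fewer groups or libraries, and thinning of the 4 deep libraries. The fitting was tested on simulated data.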

Additional observations from a re-analysis of the deposited data

Results flagged for a closer look

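Responses of 5 members differed between hsf1∆ and HSF1+ by the interaction test in edgeR, under both treatments. Under heat shock the log2 difference of response (hsf1∆ minus HSF1+) was -2.98 for HSP10, -2.78 for HSP60, -1.92 for MDJ1, -1.56 for HSP78 and -1.51 for SSC1. Under AzC it was -4.41 for HSP78, -2.60 for MDJ1, -1.88 for SSC1, -1.59 for HSP60 and -1.53 for HSP10. No member passed after AzC in hsf1∆ alone, so these values lie close to the HSF1+ responses with the sign reversed.

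Between HSF1+ and WT, which differ in the cassette, in LYS2 and in HSF1 transcript level, the same test singled out HSP10 (0.43) and MGE1 (0.57) under heat shock. Which of these the differences go with was not tested. HSP10 rose more in HSF1+, while MGE1 fell less there (log2 -0.34 in HSF1+ and -0.91 in WT). The HSP10 difference rested on single libraries, as reported above, and that of MGE1 kept its call without each library in turn.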

How the results depend on the processing

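Of 1482 values under other settings, 1424 kept their direction and their side of the threshold, and of 1296 values without a single library 1233 did. The cause of the following changes was not tested. With scaling by library size alone, members called lower numbered 0 after AzC in both WT and the strain labelled msn2/4∆, 2 in untreated hsf1∆ against WT, and 4 for the AzC response of HSF1+ against WT. Members called higher numbered 2 for AzC against heat shock in WT and 1 for the heat-shock response of HSF1+ against WT. That scaling turned 3 uncalled values: HSP10 (0.039, untreated) and MGE1 (0.075, AzC) in hsf1∆ against HSF1+, and the heat-shock response of HSP78 in the strain labelled msn2/4∆ against WT (0.0052).

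With the replicate block, HSF1+ against WT had 1 member lower untreated and 2 higher after heat shock. In the blocked fit the strain labelled msn2/4∆ against WT had 1 lower after heat shock, and 1 higher and 1 lower after AzC. The block also gave HSP60 to HSP10 under heat shock an adjusted p of 0.0234 at the same 0.15 (exact permutation). For differences of response, whose pairing was not checked as such, the block added ECM10 in 2 heat-shock responses, hsf1∆ minus HSF1+ (-0.29) and HSF1+ minus WT (0.32). It changed no other call of a member.

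With the compared groups alone, the count lower after AzC in WT was 0, the count higher for AzC against heat shock in HSF1+ was 0, and that for the heat-shock response of HSF1+ against WT was 1. With replicates 2 and 3 alone, HSF1+ against WT had 1 lower untreated, 1 called higher as a heat-shock response and 2 called lower as AzC responses. The strain labelled msn2/4∆ had 2 lower than WT after heat shock and 1 after AzC, and the AzC response of MGE1 in hsf1∆ against HSF1+ turned to -0.025. With deep libraries thinned, and with DESeq2, 1 member was lower in untreated HSF1+ than in WT. With WT as the reference of the hsf1∆ heat-shock response, 1 member was higher, MGE1 at 0.38, and ECM10 turned to 0.031.

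Without single libraries the ranges were as follows. HSP60 to HSP10 under AzC lay between 0.16 and 0.33, and HSP78 to HSP104 under heat shock between -0.019 and 0.066. Members higher for AzC against heat shock numbered 0 to 1 in HSF1+ and 1 to 2 in both WT and the strain labelled msn2/4∆. Members higher in HSF1+ than in WT numbered 1 to 2 after heat shock, and 1 to 2 as heat-shock responses. Members lower numbered 0 to 1 for AzC in both WT and the strain labelled msn2/4∆, for untreated HSF1+ against WT, for its AzC response and for that strain against WT after AzC, and 0 to 2 for that strain after heat shock. Values that turned were ECM10 in the AzC response of hsf1∆ against HSF1+ (-0.20 to 0.050), HSP10 under heat shock in hsf1∆ (-0.16 to 0.030) and HSP78 in the heat-shock response of the strain labelled msn2/4∆ against WT (-0.26 to 0.029).

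The lowest count of any member was 163, for ECM10. Deposited counts cannot be recounted for shared reads, strand or annotation. With 3 libraries a group of unstated origin, small differences rest on few values.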
